A study of Homo sapiens with 24 samples.

Results

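The mitotic cyclins and kinases described here are 10 genes that drive cells into and through mitosis: the cyclins CCNA2, CCNB1, CCNB2 and CCNF, the kinases CDK1, PLK1, AURKA, AURKB and BUB1, and CDC20, which opens the way to anaphase. They were chosen by symbol, and each was found by its Ensembl identifier among the 14585 genes of the deposited count table. All 10 passed the filter on low counts in both cell lines. RNA was sequenced from 2 human cancer cell lines labelled as wild type, A549, a lung carcinoma line, and Huh7, a hepatocellular carcinoma line. The paper states that A549 has wild-type p53 and that Huh7 carries a p53 mutation. The part of p53 in the differences between the lines was not tested. Cells of each line were left as control or treated with a crude extract of 1 of 3 herbal medicines: Pulsatilla chinensis (P. chinensis), Bupleurum chinense (B. chinense) or Polyporus umbellatus (P. umbellatus). This gave 8 groups of 3 libraries, 24 libraries in all. The concentration and duration of the exposure of the sequenced cells, and what the control cells received, are not given in the sources used here. Each extract is a mixture of many compounds, and each line stands for 1 tumour. The labels do not say that the 3 replicates were separate cultures, so p-values measure the spread between these samples, which may be technical.

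Entry into mitosis is driven by the kinase CDK1, which is active only when bound to a cyclin. Cyclin A partners it before mitosis and B-type cyclins during mitosis. Polo-like kinase 1 and the Aurora kinases act beside CDK1 on centrosomes, kinetochores and the cytokinesis machinery. The anaphase-promoting complex, switched on by CDC20, ends mitosis by marking cyclin B and securin for destruction. The mRNAs of these genes peak in G2 and mitosis, so their level in a culture follows both the share of cells in those phases and the mRNA per cell. In these bulk libraries, fewer cells in a phase and less RNA per cell cannot be told apart.

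The genes lie on 9 chromosomes, with positions given for GRCh38. CCNA2 (ENSG00000145386, chromosome 4, 121816444 to 121823883) encodes cyclin A2. CCNB1 (ENSG00000134057, chromosome 5, 69167135 to 69178245) and CCNB2 (ENSG00000157456, chromosome 15, 59105126 to 59125045) encode the B-type cyclins. CCNF (ENSG00000162063, chromosome 16, 2429394 to 2458854) encodes cyclin F, which binds no CDK and acts as the substrate receptor of a ubiquitin ligase. CDK1 lies on chromosome 10 (ENSG00000170312, 60778331 to 60794852). PLK1 lies on chromosome 16 (ENSG00000166851, 23677656 to 23690367). AURKA (ENSG00000087586, chromosome 20, 56369389 to 56392337) encodes the centrosomal Aurora kinase. AURKB (ENSG00000178999, chromosome 17, 8204733 to 8210600) encodes the kinase of the chromosomal passenger complex. BUB1 (ENSG00000169679, chromosome 2, 110637528 to 110678063) encodes a kinetochore kinase of the spindle assembly checkpoint. CDC20 lies on chromosome 1 (ENSG00000117399, 43358981 to 43363203). The GC content of the canonical transcripts fell into separate ranges, at 55.7% to 57.3% for AURKB, CDC20, PLK1 and CCNF, 41.9% to 45.2% for CCNA2, CCNB1, BUB1, AURKA and CCNB2, and 35.4% for CDK1.

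Promoters of G2/M genes are known for CCAAT boxes, bound by NF-Y, and for the cell cycle genes homology region (CHR), bound by the MuvB core of the DREAM and MYBL2-MuvB complexes. Promoter sequences from RefSeq (GRCh38.p14), reaching from 250 bases before to 50 bases after each start site, were found for 9 of the 10 genes. AURKA was not matched. CDK1 and AURKB each had more than 1 promoter, and a gene was counted when any of its promoters held a match. The shares of all promoters count each promoter singly. CCAAT or its reverse complement ATTGG was present in 9 of the 9, against 34.6% of all 35116 promoters in the table. The CHR letters TTTGAA, or TTCAAA on the other strand, were present in 5 of the 9, namely CCNB2, CCNF, CDC20, CDK1 and PLK1, against 15.2% of all promoters. The variant TTTAAA, which is its own reverse complement, was present in CCNB1, CCNB2, CDK1 and PLK1, 4 of the 9, against 12.2%. The E2F forms TTTCCCGC and TTTGGCGC were searched on both strands and found in 0 of the 9, against 1.63% and 0.652% of all promoters. Within a promoter, none of the matches overlapped another. The AURKB promoters overlap each other and share the same CCAAT site. These are letter matches only. The 110 bases before the start site are shown for 5 genes, 5′ to 3′ on the gene's strand, because each carries a CCAAT box between 54 and 56 bases before the start, with the CCAAT box, the CHR and its variant in capitals, on either strand.
CCNA2, chr4:121823884-121823993, minus strand: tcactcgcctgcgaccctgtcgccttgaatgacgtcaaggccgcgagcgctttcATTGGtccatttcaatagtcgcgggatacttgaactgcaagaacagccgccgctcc
CCNB1, chr5:69167040-69167149, plus strand: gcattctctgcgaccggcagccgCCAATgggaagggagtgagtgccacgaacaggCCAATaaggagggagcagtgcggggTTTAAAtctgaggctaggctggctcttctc
CCNB2, chr15:59105036-59105145, plus strand: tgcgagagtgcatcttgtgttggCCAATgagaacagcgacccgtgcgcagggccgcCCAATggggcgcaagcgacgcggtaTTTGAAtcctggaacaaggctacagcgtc
BUB1, chr2:110678064-110678173, minus strand: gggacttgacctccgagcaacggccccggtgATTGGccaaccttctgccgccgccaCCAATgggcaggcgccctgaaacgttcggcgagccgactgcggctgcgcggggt
CDC20, chr1:43358871-43358980, plus strand: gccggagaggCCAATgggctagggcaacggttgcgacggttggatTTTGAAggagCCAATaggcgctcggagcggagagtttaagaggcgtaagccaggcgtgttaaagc

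Positions count from the RefSeq start sites, which can differ from the gene starts given above. Of the windows shown, 15 bases in CCNB1 and 20 in CCNB2 lie in GENCODE exons. In CCNB1, CCNB2 and CDC20, a CCAAT box began -55, -54 and -55 bases from the start site, with a further box at -87, -87 and -100 bases. BUB1 held CCAAT at -54 and ATTGG at -79, and CCNA2 held ATTGG at -56. The CHR letters began at -29 in CCNB2 and at -65 in CDC20, and TTTAAA began at -30 in CCNB1. Neither TTTGAA nor TTTAAA was found, on either strand, in the windows of CCNA2, BUB1 or AURKB. Other forms of the CHR were not searched.

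The libraries summed to between 6803704 and 24345541 counts. The 10 genes had 234 to 2875 counts per library in A549 and 285 to 6029 in Huh7, so none was near the limit of detection. Levels of the 10 genes are given as CPM, which scale the counts of each library to a common total, after TMM normalization within a line. The marker sums that follow are CPM of the library total without TMM normalization. Summed hepatocyte markers stood at 25.1 to 37.5 CPM in A549 and 13280 to 23640 CPM in Huh7. Summed lung epithelial markers stood at 5889 to 7688 CPM in A549 and 2.9 to 6.9 CPM in Huh7, from the 4 of 9 listed markers in the table. NKX2-1, SFTPA1, SFTPC, SFTPD and NAPSA were not among the genes of the table, so the lung label rests on few markers. Fibroblast markers summed to 7.0 to 13.8 CPM in A549 and 15.3 to 39.1 CPM in Huh7, with COL1A2 at 0 in every A549 library. Leukocyte markers, 3 of 5 in the table, summed to 18.6 to 30.0 CPM in A549 and 21.7 to 45.9 CPM in Huh7. The 3 Huh7 libraries of P. umbellatus stood apart in base composition. Across genes, the deviation of a library from the mean of its line had a Spearman correlation with GC content of -0.475, -0.77 and -0.378 in these, and of 0.257 to 0.402 in the other Huh7 libraries. Replicate 2, the library at -0.77, was also the farthest from the other 2 for 9 of the 10 genes, all but AURKA, and the calls of the 10 genes in Huh7 are given with and without it. Medians, list counts and correlations in Huh7 include it.

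In control A549 cells, CCNB1 and PLK1 had the highest levels per transcript length, at 132.7 ± 3.64 and 119.0 ± 5.77 CPM per kb (SD, n = 3). CDC20, CDK1 and AURKA followed at 93.0 ± 3.77, 89.6 ± 1.01 and 88.4 ± 2.96 CPM per kb, and neighbours among these 3 differed by less than the larger of their SDs. CCNB2 stood at 75.1 ± 3.34, AURKB at 67.0 ± 1.19, CCNA2 at 44.2 ± 1.87, BUB1 at 33.9 ± 4.19 and CCNF at 23.7 ± 1.37 CPM per kb. In control Huh7 cells the order was CDC20 at 119.0 ± 1.90, CDK1 at 95.4 ± 3.59, CCNB1 at 91.5 ± 0.916, AURKA at 81.2 ± 1.52 and PLK1 at 78.0 ± 1.68 CPM per kb. AURKB stood at 63.6 ± 3.60, CCNA2 at 58.9 ± 1.07, CCNB2 at 54.9 ± 1.89, CCNF at 23.3 ± 0.573 and BUB1 at 23.1 ± 1.20 CPM per kb, and only CCNF and BUB1 were within 1 SD of each other.

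Control cells of the lines were compared in a model of all 24 libraries. Of the 10 genes, 4 were higher in A549 than in Huh7 and 2 were lower, where 33.8% and 34.9% of the 12924 genes tested were called in each direction (edgeR quasi-likelihood test, Benjamini-Hochberg adjusted p below 0.05). PLK1 was higher by 0.61 ± 0.0805 on the log2 scale (SE, adjusted p = 6.18e-07), BUB1 by 0.55 ± 0.126 (adjusted p = 0.000497), CCNB1 by 0.54 ± 0.0726 (adjusted p = 8.73e-07) and CCNB2 by 0.45 ± 0.0783 (adjusted p = 2.33e-05). The log2 differences of CCNA2 and CDC20 were -0.41 ± 0.0842 (adjusted p = 0.000176) and -0.35 ± 0.0912 (adjusted p = 0.00166). AURKA, at 0.12 ± 0.0558 (adjusted p = 0.0526), lay at the threshold and passed it without A549 P. chinensis replicate 3, A549 P. umbellatus replicate 1, A549 control replicate 3 or any 1 of the 9 Huh7 libraries treated with a herb (adjusted p 0.0194 to 0.046). It also passed with DESeq2, RLE size factors, upper quartile scaling, voom, a mean above 20 counts and only the compared libraries (0.00412 to 0.0187). CCNF, CDK1 and AURKB did not pass the test.

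In A549 cells, all 10 genes were down-regulated by P. chinensis, where 17.1% of the 13633 genes tested were down-regulated and 15.8% up-regulated. The median log2 fold change of the 10 was -1.27, against 0.0142 over all genes tested. In each of the 10, all 3 treated libraries lay below all 3 controls, a pattern found for 22.6% of genes, with the reverse pattern for 22.6%.

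Among the cyclins, CCNA2 stood at 122, 116 and 126 CPM in the controls and at 40.3, 44.5 and 39.1 CPM after P. chinensis. It fell by 65.9%, a log2 fold change of -1.55 ± 0.0776 (SE, n = 3, adjusted p = 3.12e-09, edgeR). CCNB1 stood at 263, 268 and 277 CPM in the controls and at 133, 132 and 121 CPM after treatment, and fell by 52.3%. The other B-type cyclin, CCNB2, went from 117, 111 and 107 CPM to 46.4, 44.8 and 43.3 CPM and fell by 59.8%. CCNF went from 105, 103 and 93.8 CPM to 39.2, 47.2 and 40.6 CPM and fell by 57.7%. The fall was steepest for cyclin A2 and shallowest for cyclin B1 among the 4 cyclins, with log2 fold changes of -1.07 ± 0.0522 for CCNB1, -1.31 ± 0.0789 for CCNB2 and -1.24 ± 0.113 for CCNF.

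Of the kinases, CDK1 stood at 171, 170.2 and 167 CPM in the controls and at 60.8, 61.9 and 49.6 CPM after P. chinensis. Its log2 fold change of -1.56 ± 0.0778 (adjusted p = 3.12e-09, edgeR) was the largest of the 10. PLK1, at 259, 244 and 268.5 CPM in the controls, stood at 101.5, 100.1 and 89.0 CPM after treatment, with a log2 fold change of -1.41 ± 0.0749. AURKA went from 182.5, 184 and 173 CPM to 93.4, 89.6 and 84.4 CPM, with the smallest log2 fold change of the 10, -1.01 ± 0.0618 (adjusted p = 1.9e-08, edgeR). AURKB, the least abundant member by count, went from 85.0, 82.4 and 82.4 CPM to 41.9, 36.1 and 24.9 CPM, with a log2 fold change of -1.28 ± 0.143 and the widest spread between treated replicates. BUB1 went from 139, 134 and 109 CPM to 60.4, 53.9 and 44.9 CPM, with a log2 fold change of -1.26 ± 0.117. CDC20 went from 151, 149 and 160.5 CPM to 70.1, 75.1 and 72.3 CPM, with a log2 fold change of -1.08 ± 0.0796. Over the 10 genes, the change thus ran from -66.1% to -50.4%.

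**Figure D1:**
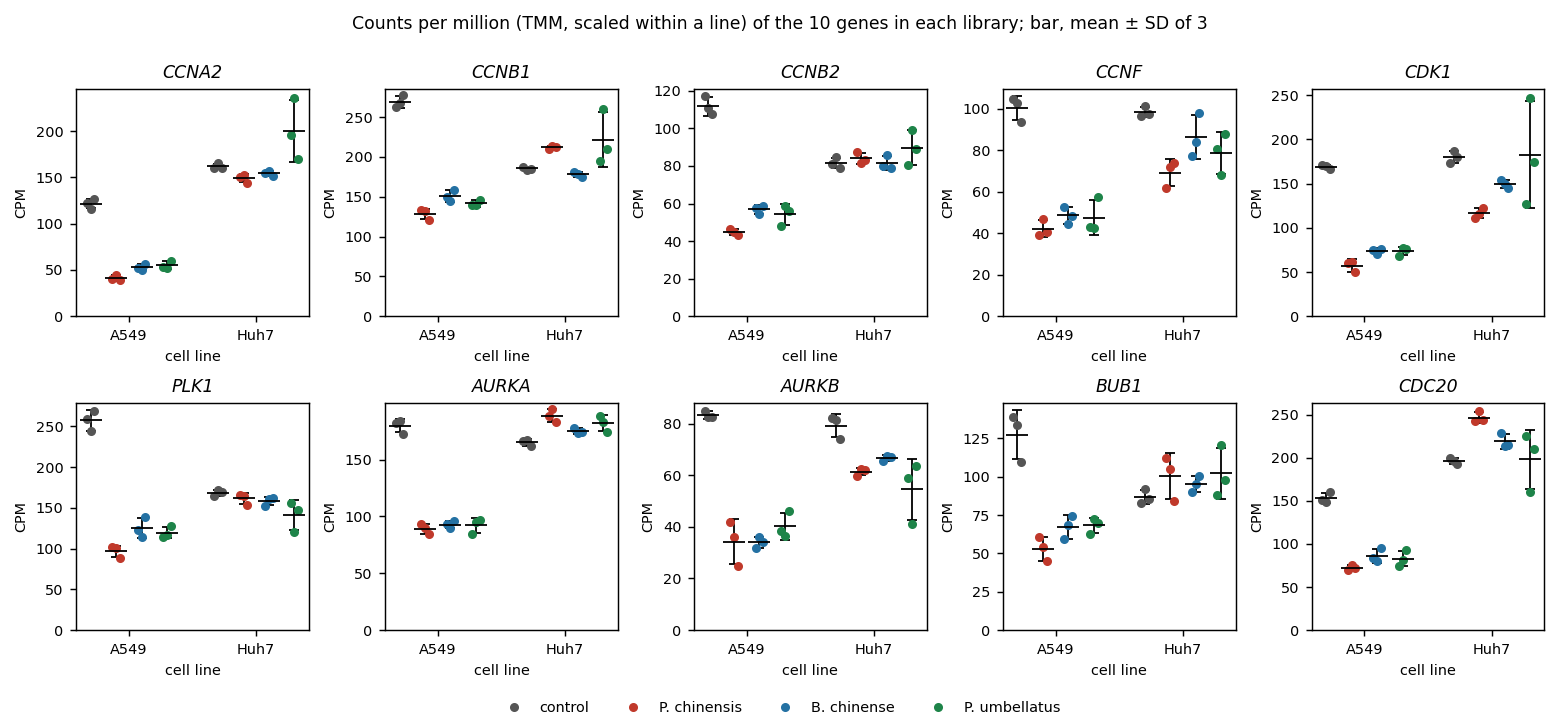
Level of each gene, in CPM scaled within a line (vertical axis, from 0), in every library, by cell line (horizontal axis) and treatment (colour), with bars for the mean ± SD of 3 libraries. In A549 every treated library lies below every control library for all 10 genes, while in Huh7 the herbs lie near or on both sides of the controls.

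The other herbs were compared with the same A549 control libraries. B. chinense down-regulated all 10 genes, where 15.0% of all genes tested were down-regulated and 13.1% up-regulated, with a median log2 fold change of -1.005 for the 10 and -0.00184 for all genes. P. umbellatus also down-regulated all 10, against 14.8% down and 13.4% up over all genes, with medians of -1.05 and -0.012. With either herb, no treated library reached a control library for any of the 10, a pattern found for 21.4% and 21.7% of genes, with the reverse pattern for 19.1% and 19.9%.

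CCNA2 stood at 52.6, 49.8 and 56.7 CPM after B. chinense and at 53.2, 52.5 and 60.1 CPM after P. umbellatus, changes of -56.4% and -54.6%. CDK1 stood at 75.2, 71.0 and 76.2 CPM after B. chinense and at 68.2, 76.7 and 75.8 CPM after P. umbellatus, with log2 fold changes of -1.19 ± 0.077 and -1.20 ± 0.0758. The largest change with B. chinense was that of AURKB, which stood at 31.9, 36.1 and 34.2 CPM (log2 fold change -1.28 ± 0.144, adjusted p = 1.31e-05, edgeR). CDK1 changed the most with P. umbellatus (adjusted p = 5.77e-08, edgeR). CDC20 and CCNB1 changed the least with B. chinense, with log2 fold changes of -0.83 ± 0.0794 and -0.84 ± 0.0521. CDC20 and BUB1 changed the least with P. umbellatus, at -0.90 ± 0.0785 and -0.90 ± 0.114. PLK1 changed by -51.4% with B. chinense and by -53.6% with P. umbellatus, and AURKA by -48.3% and -48.8%. Every one of these 30 calls in A549 held under the 9 alternative settings and without any 1 library, with log2 fold changes from -1.61 to -0.78.

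**Figure D2:**
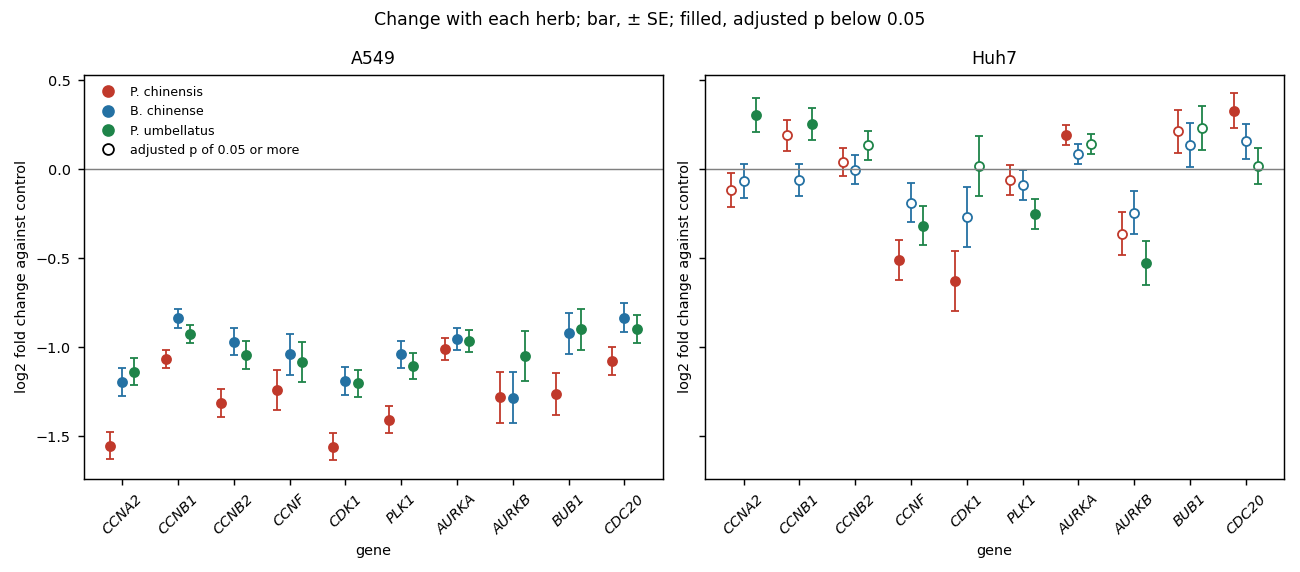
Log2 fold change of each gene against the control of its line (vertical axis) for A549 (left) and Huh7 (right), coloured by herb, with bars of ± SE and filled points for an adjusted p below 0.05. In A549 all 30 points lie between -1.56 and -0.83, while in Huh7 they lie between -0.63 and 0.33 and 9 of 30 are filled.

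Whether P. chinensis lowered these genes further than the other herbs in A549 was tested directly. Against B. chinense, 3 of the 10 were lower and 0 higher, where 1.0% of all genes were lower and 0.447% higher, and 6 lay below without overlap, as did 9.46% of all genes, against 9.92% above. They were CCNA2 at -0.36 ± 0.0804 on the log2 scale (adjusted p = 0.0424, edgeR), CDK1 at -0.37 ± 0.0804 (adjusted p = 0.036) and PLK1 at -0.37 ± 0.0765 (adjusted p = 0.0303). Against P. umbellatus, 3 were again lower and 0 higher, where 2.19% of all genes were lower and 0.814% higher, and 6 lay below without overlap, as did 11.4% of all genes, against 10.7% above. The 3 were CCNA2 at -0.41 ± 0.0788 (adjusted p = 0.0132), CDK1 at -0.35 ± 0.0791 (adjusted p = 0.0279) and PLK1 at -0.30 ± 0.0756 (adjusted p = 0.0472). AURKA differed little in either comparison, with 95% intervals of -0.20 to 0.08 against B. chinense and -0.18 to 0.09 against P. umbellatus, and AURKB had an interval of -0.32 to 0.32 against B. chinense.

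These direct calls lay near the threshold. Against B. chinense, the number of genes called ranged from 0 to 3 when 1 library was left out and from 0 to 5 over the other settings, and it was 0 without B. chinense replicate 1 or 3 or P. chinensis replicate 1 or 3, where the adjusted p of CCNA2 was 0.0973, 0.161, 0.114 and 0.192. CCNA2 was also lost there without B. chinense replicate 2, P. umbellatus replicate 1 or 2 or any 1 control (adjusted p 0.0512 to 0.0572), CDK1 without B. chinense replicate 2, P. umbellatus replicate 3 or any 1 control (0.0508 to 0.0592), and PLK1 without P. chinensis replicate 2 (0.051). Without P. umbellatus replicate 1 or 2, CCNB2 was called in addition (adjusted p = 0.0266 and 0.0479). Against P. umbellatus, the number was 0 without P. chinensis replicate 3 or P. umbellatus replicate 3, where CCNA2 had an adjusted p of 0.0713 and 0.0575. CDK1 was lost there without P. umbellatus replicate 2 as well (0.101), and PLK1 without any 1 library other than B. chinense replicate 2 or 3 (0.0567 to 0.212). Without P. umbellatus replicate 1, CCNB2 was called there too (0.0278).

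In Huh7 cells, P. chinensis down-regulated 2 of the 10 genes and up-regulated 2, where 10.5% of the 13875 genes tested were called in each direction, and the median log2 fold change of the 10 was -0.00951 against 0.011 over all genes. CDK1 stood at 173.5, 187 and 179.9 CPM in the controls and at 111, 116 and 123 CPM after treatment. All treated libraries lay below the controls, with a log2 fold change of -0.63 ± 0.167 (SE, n = 3, adjusted p = 0.0187, edgeR), a change of -35.4%. CCNF, cyclin F, went from 96.8, 101 and 97.5 CPM to 61.7, 71.9 and 74.1 CPM, with a log2 fold change of -0.51 ± 0.11 (adjusted p = 0.00586). CDC20 rose, from 199, 196 and 193 CPM to 242, 254 and 243 CPM, with a log2 fold change of 0.33 ± 0.099 (adjusted p = 0.0331). AURKA rose from 166, 167 and 161.5 CPM to 188, 194 and 183 CPM, a log2 fold change of 0.19 ± 0.0568 (adjusted p = 0.031).

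AURKB stood at 82.0, 81.3 and 73.9 CPM in the Huh7 controls and at 59.8, 62.4 and 62.1 CPM after P. chinensis. The groups did not overlap, and the log2 fold change of -0.36 ± 0.121 had an adjusted p of 0.0503 (edgeR). CCNB1 went from 188, 184 and 185 CPM to 210.1, 213 and 212.5 CPM, also without overlap, with a log2 fold change of 0.19 ± 0.0877 and an adjusted p of 0.151. In all, 4 genes lay below and 3 above the controls without overlap, patterns found for 26.6% and 26.7% of all genes. CCNA2, CCNB2, PLK1 and BUB1 had log2 fold changes of -0.12, 0.04, -0.06 and 0.21, with adjusted p from 0.253 to 0.774. The spread that enters these tests is shared with the P. umbellatus libraries of the line. Without P. umbellatus replicate 2, AURKB (adjusted p = 0.000285) and CCNB1 (adjusted p = 0.00224) passed as well, giving 3 genes down and 3 up. AURKB also passed without P. umbellatus replicate 3 (0.0213), and with DESeq2 (0.0182), RLE size factors (0.0461), voom (0.000112), the GC and length offset (5.12e-05) and only the compared libraries (0.000435).

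The call of CCNF in Huh7 cells treated with P. chinensis held in all 21 alternatives, and that of CDK1 in the 9 other settings. CDK1 lost it without P. chinensis replicate 1 or 2 or control replicate 2 or 3 (adjusted p 0.0529 to 0.0618). The 2 increases were less stable. AURKA was lost without any 1 of the 9 control, P. chinensis and B. chinense libraries (adjusted p 0.0562 to 0.154), and so was CDC20 (0.0613 to 0.135). With an offset for GC content and length, 4 genes were down (CCNA2, CCNF, CDK1 and AURKB) and 1 up (CDC20).

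B. chinense changed none of the 10 genes in Huh7 by the edgeR test, with 0 of 10 down and 0 up, where 0.757% and 0.519% of all genes were called. At an unadjusted p under 0.05, 0 of the 10 were down and 0 up as well. The median log2 fold change of the 10 was -0.0641, against -0.000103 over all genes, and 5 genes lay below and 2 above the controls without overlap, as did 15.4% and 13.7% of all genes. DESeq2 called 0 as well, voom with sample quality weights 1 (AURKB), and a fit of only the compared libraries 3 (CDK1, AURKB and CDC20). The largest values were those of CDK1, at 154, 150.1 and 145 CPM against controls of 173.5, 187 and 179.9 CPM, with a log2 fold change of -0.27 ± 0.168 (95% interval -0.63 to 0.10). AURKB stood at 65.5, 67.6 and 67.0 CPM, all below its controls, at -0.24 ± 0.122 (95% interval -0.51 to 0.02). It passed without P. umbellatus replicate 2 (adjusted p = 0.0224). The intervals of CCNA2, CCNB1, CCNB2 and PLK1 lay between -0.28 and 0.17, so falls of the size seen in A549 lay outside them.

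P. umbellatus down-regulated 3 of the 10 genes in Huh7 and up-regulated 2, where 17.8% and 19.3% of all genes were called, and the medians were 0.0773 for the 10 and 0.0317 for all genes. Without overlap, 3 lay below and 3 above the controls, against 23.6% and 24.8% of all genes. AURKB stood at 58.9, 41.1 and 63.7 CPM against controls of 82.0, 81.3 and 73.9 CPM, a log2 fold change of -0.53 ± 0.124 (adjusted p = 0.00724, edgeR). CCNF stood at 80.6, 68.1 and 88.1 CPM (-0.32 ± 0.112, adjusted p = 0.042) and PLK1 at 156, 120.4 and 147 CPM (-0.25 ± 0.0856, adjusted p = 0.0359). All 3 are genes of high GC content. CCNA2 rose to 196, 235 and 169 CPM (0.31 ± 0.0956, adjusted p = 0.0265) and CCNB1 to 195, 260.3 and 209.8 CPM (0.26 ± 0.0884, adjusted p = 0.0396). Both are genes of low GC content. CDK1 ran from 127 to 247 CPM among the treated replicates, with a log2 fold change of 0.02 ± 0.168, and CDC20 from 160.0 to 225 CPM, with 0.02 ± 0.0999.

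Over all 13875 genes, the log2 fold change with P. umbellatus in Huh7 had a Spearman correlation of -0.669 with GC content, and those of the other 5 comparisons of a herb with control lay between -0.109 and 0.127. The tests were repeated with an offset for GC content and length. It removes any change that follows either one, so it does not measure the part of base composition alone. Under the offset, AURKB (-0.16, adjusted p = 0.0936), CCNF (0.04, 0.796), PLK1 (0.15, 0.1), CCNA2 (0.09, 0.298) and CCNB1 (0.07, 0.41) were not called. CDK1 was then down (-0.33, adjusted p = 0.0396) and CDC20 up (0.43, adjusted p = 0.00038), so none of the 5 calls was kept. In a fit of only the compared libraries, 0 of the 10 were called in either direction. Without P. umbellatus replicate 2, 2 were down (AURKB and PLK1) and 4 up (CCNA2, CCNB1, AURKA and CDC20), with CCNF at an adjusted p of 0.11. AURKB kept its call without any 1 library.

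Other calls of this comparison turned on single libraries. AURKA passed without P. umbellatus replicate 2 (adjusted p = 0.0483) or 3 (0.0261), and CDC20 without replicate 2 (0.0388). CCNB1 was lost without any 1 of the 9 other libraries of the line (0.0557 to 0.133), PLK1 without any 1 control (0.0672 to 0.0904), CCNF without P. chinensis replicate 3, P. umbellatus replicate 1 or any 1 control (0.052 to 0.093), and CCNA2 without B. chinense replicate 1, P. chinensis replicate 1 or 2 or any 1 control (0.05 to 0.0755).

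**Figure D3:**
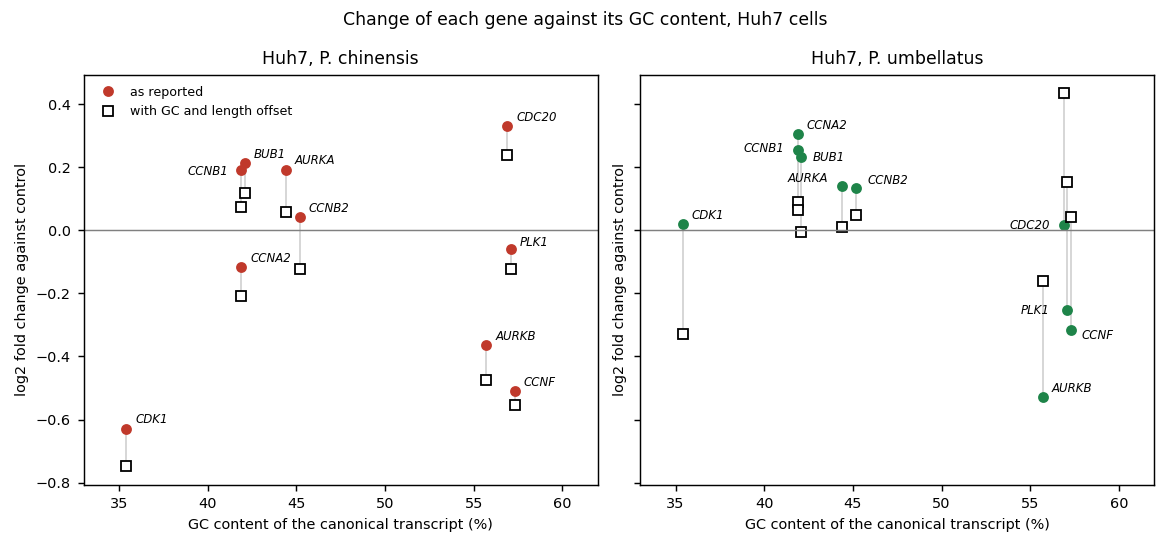
Log2 fold change against control in Huh7 (vertical axis) by GC content of the canonical transcript in percent (horizontal axis), for P. chinensis (left) and P. umbellatus (right), with filled circles as reported and open squares with an offset for GC content and length. With P. umbellatus the genes at 55.7% to 57.3% GC move up under the offset and those at 35.4% to 45.2% move down, while with P. chinensis CCNF and CDK1 stay lowest under both.

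The herbs were also set against each other in Huh7. Between P. chinensis and B. chinense, 0 of the 10 genes differed by edgeR, where 3.91% and 3.89% of all genes were lower and higher. At an unadjusted p under 0.05, 1 of the 10 was lower and 1 higher. Without overlap, 3 lay below and 3 above, against 20.4% and 20% of all genes. DESeq2 called 1 lower. CDK1 had a difference of -0.36 (95% interval -0.73 to 0.0039) and CCNB1 of 0.25 (95% interval 0.06 to 0.44). Without P. umbellatus replicate 2, CDK1 (adjusted p = 0.0132) and CCNF (0.0221) were lower and CCNB1 (0.000877) and CDC20 (0.0153) higher. Between P. chinensis and P. umbellatus, 2 were lower and 1 higher, where 18.8% and 16.5% of all genes were called, and 2 lay below and 1 above without overlap, against 23.3% and 24%. They were CDK1 at -0.65 ± 0.169 (adjusted p = 0.0113), CCNA2 at -0.42 ± 0.0958 (adjusted p = 0.00554) and CDC20 at 0.31 ± 0.0999 (adjusted p = 0.0288). With the GC and length offset, 7 were lower and 0 higher, and the difference of CDC20 was -0.20. CDC20 was lost without P. chinensis replicate 1, 2 or 3 (0.0585 to 0.0829), while PLK1 was added without P. umbellatus replicate 1 (0.0329) and CCNF without replicate 2 (0.0435).

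Whether a herb acted differently on these genes in A549 and Huh7 was tested as an interaction, the log2 fold change in A549 minus that in Huh7, over the 12924 genes tested in both. For P. chinensis, the fold change of all 10 genes was lower in A549, where 9.30% of all genes were lower and 10.3% higher, with a median difference of -1.25. BUB1 differed most, at -1.42 ± 0.18 (adjusted p = 6.45e-06, edgeR), followed by CCNA2 at -1.38 ± 0.122 and CDC20 at -1.36 ± 0.131. CCNF and AURKB differed least, at -0.68 ± 0.166 (adjusted p = 0.00524) and -0.86 ± 0.2 (adjusted p = 0.00338), with CDK1 at -0.88 ± 0.199 (adjusted p = 0.00289). These 3 were the lowest of the 10 in Huh7 with this herb. For B. chinense, all 10 again differed, where 5.80% of all genes were lower and 5.80% higher, with a median of -0.94 and a range from -1.09 for CCNA2 to -0.74 for CCNB1.

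For P. umbellatus, the fold change of 9 of the 10 genes was lower in A549, where 15.3% of all genes were lower and 19.1% higher, with a median difference of -1.04. CCNA2 was again at the far end, at -1.36 ± 0.121 (adjusted p = 9.5e-08, edgeR), with CDK1 at -1.14 ± 0.198 (adjusted p = 0.000201). AURKB, at -0.44 ± 0.201, had an adjusted p of 0.0942. It passed without Huh7 P. umbellatus replicate 2 (-0.65, adjusted p = 0.0061), without A549 P. chinensis replicate 3 (0.0397) and with the GC and length offset (-0.85, adjusted p = 0.000786). Over all genes, this difference had a Spearman correlation of 0.591 with GC content, against 0.113 for P. chinensis and 0.175 for B. chinense. It also passed with voom (-0.55). All 29 calls held under the 9 other settings and without any 1 library, Huh7 P. umbellatus replicate 2 included.

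**Figure D4:**
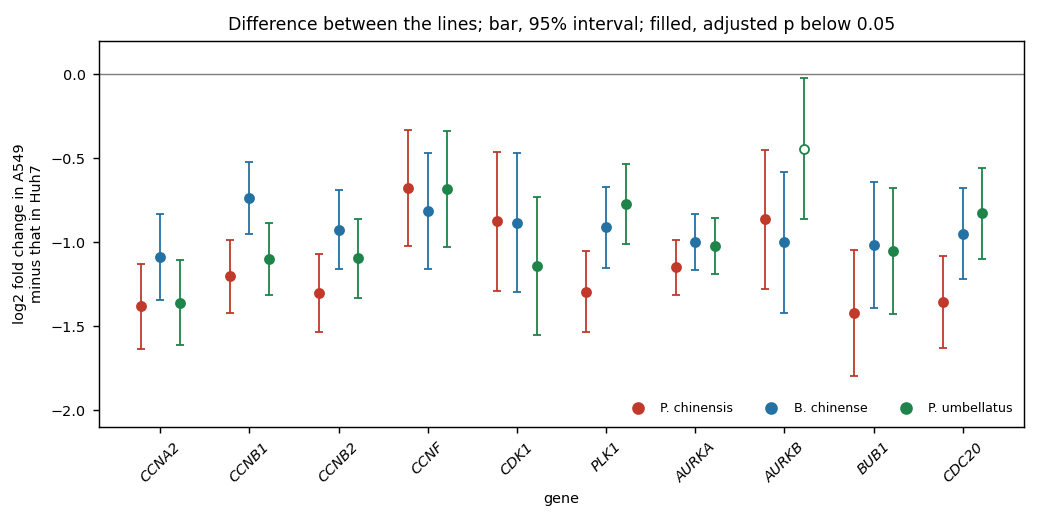
Log2 fold change in A549 minus that in Huh7 (vertical axis) for each gene (horizontal axis) and herb (colour), with 95% intervals and filled points for an adjusted p below 0.05. All 30 points lie below 0, from -1.42 to -0.44, and only AURKB with P. umbellatus is open.

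Ratios of counts between members within a library are free of the scaling between libraries, and 6 pairs were looked at after the values were seen, with no test, of which 3 are given. The CCNB1 to CDK1 ratio was 1.08, 0.984 and 1.03 in the Huh7 controls and 1.89, 1.84 and 1.73 after P. chinensis. It was 1.18, 1.19 and 1.20 after B. chinense, and 1.53, 1.05 and 1.20 after P. umbellatus. The balance between the cyclin and its kinase thus stood apart in the 3 Huh7 libraries of P. chinensis. In A549 it was 1.54, 1.58 and 1.66 in the controls and 2.19, 2.13 and 2.44 after P. chinensis, and it was 1.98, 2.03 and 2.09 after B. chinense and 2.05, 1.82 and 1.93 after P. umbellatus. All 9 treated A549 libraries were above the controls. The CCNA2 to CDK1 ratio in A549 overlapped between controls (0.717, 0.682 and 0.755) and P. chinensis (0.663, 0.718 and 0.789). In Huh7 it did not, at 0.923, 0.883 and 0.890 in the controls and 1.36, 1.32 and 1.17 after P. chinensis. The other herbs were also above these controls, at 1.002, 1.046 and 1.046 after B. chinense and 1.54, 0.953 and 0.972 after P. umbellatus. The AURKA to AURKB ratio was 2.03, 2.06 and 2.19 in the Huh7 controls and 3.15, 3.11 and 2.95 after P. chinensis. It was 2.71, 2.57 and 2.60 after B. chinense, and 3.20, 4.47 and 2.74 after P. umbellatus, all above the controls. These 2 genes differ in GC content, and with the GC and length offset the log2 fold changes of P. umbellatus went from 0.14 to 0.01 for AURKA and from -0.53 to -0.16 for AURKB.

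The genes that work with these members moved as follows in A549. P. chinensis, B. chinense and P. umbellatus down-regulated 17.1%, 15.0% and 14.8% of all genes tested there and up-regulated 15.8%, 13.1% and 13.4%. These shares apply to every A549 list below. The Aurora and PLK1 cofactors, proteins that work with these kinases, were all down-regulated by each herb, 12 of 12, with a median log2 fold change of -1.15 for P. chinensis. PRC1, which bundles midzone microtubules, had -1.52 ± 0.0973, and HMMR, a spindle-associated protein, -1.51 ± 0.0677. Of 14 CDK1 regulators, 9, 9 and 8 were down-regulated by the herbs, in the order P. chinensis, B. chinense, P. umbellatus used for all lists, and 0 up-regulated. PKMYT1, which places inhibitory phosphates on CDK1, had -1.55 ± 0.184 with P. chinensis, and CDC25C, which removes them, -1.30 ± 0.187. These have opposite roles towards CDK1 and fell together. In the spindle assembly checkpoint list, 10, 10 and 11 of 12 were down-regulated and 0 up-regulated, led with P. chinensis by MAD2L1 at -1.49 ± 0.117 and HASPIN at -1.43 ± 0.102, a histone kinase that places Aurora B at centromeres.

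Of 20 genes of the anaphase-promoting complex (APC/C) and anaphase, 10, 9 and 8 were down-regulated in A549 by the 3 herbs, and 0 up-regulated, with a median of -0.285 for P. chinensis. UBE2C, the complex's ubiquitin-conjugating enzyme, had -1.59 ± 0.101, and FBXO5, its inhibitor, -1.51 ± 0.13. In a list of polo-like and other kinases, not all of them mitotic, 11 of 12 were tested. Of these, 4 were down-regulated by each herb and 3, 5 and 5 up-regulated. PBK and MELK were at -1.50 ± 0.0891 and -1.37 ± 0.0876 with P. chinensis, while the polo-like kinases PLK3 and PLK2, which are known as stress-responsive, were at 1.504 ± 0.219 and 1.03 ± 0.0736. The polo-like family thus held genes that rose and PLK1, which fell, in the same libraries.

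Of 14 regulators of G2/M genes, 8, 7 and 8 were down-regulated in A549 by the 3 herbs, and 1 was up-regulated by each. MYBL2, which partners MuvB at G2/M promoters, had -1.71 ± 0.0945 with P. chinensis, and the MuvB subunit LIN9 -1.18 ± 0.163. The gene that rose was CDKN1A, which encodes the CDK inhibitor p21, at 2.54 ± 0.0794, 2.41 ± 0.0794 and 2.20 ± 0.0789. Of 6 genes tested of 7 listed as G1 cyclins and partners, 3, 3 and 2 were down-regulated and 1, 2 and 2 up-regulated. CCNE2 had -0.86 ± 0.167 and CCND3 -0.54 ± 0.0573 with P. chinensis, while CCND1, cyclin D1, had 0.36 ± 0.0388 (adjusted p = 6.75e-06, edgeR). The G1 list thus held changes in both directions, with a median of -0.269, where the mitotic members had -1.27.

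In Huh7, where 10.5% of all genes were called in each direction with P. chinensis, it down-regulated 4 and up-regulated 2 of the 14 CDK1 regulators. PKMYT1 (-0.68 ± 0.217) and CDC25C (-0.53 ± 0.097) were lowest, and PPP2R2D (0.92 ± 0.27) and CKS2 (0.67 ± 0.154), a small subunit that binds CDK1, were highest. Of the 12 Aurora and PLK1 cofactors, 2 were down-regulated and 5 up-regulated, with INCENP, the scaffold of the Aurora B complex, at -0.38 ± 0.115 and CEP192 at -0.34 ± 0.0967, and KIF20A and NEK2 at 0.36 ± 0.0843 and 0.36 ± 0.109. Of the spindle assembly checkpoint list, 6 of 12 were down-regulated and 0 up-regulated, led by HASPIN at -0.46 ± 0.0841. In the APC/C and anaphase list, 3 of 20 were down-regulated and 2 up-regulated, with UBE2C at -0.82 ± 0.101 and FBXO5 at -0.70 ± 0.0931 lowest and CDC26 at 0.52 ± 0.133 and PTTG1, securin, at 0.43 ± 0.141 highest. In the list of polo-like and other kinases, 2 of 12 were down-regulated and 1 up-regulated, with CDK2 at -0.42 ± 0.0745 and PLK2 at 2.21 ± 0.124. CDKN1A had 0.73 ± 0.169, and its fold change in A549 minus that in Huh7 was 1.87 ± 0.169 on the log2 scale (adjusted p = 6.75e-08, edgeR). With B. chinense in Huh7, 0.757% of all genes were down-regulated and 0.519% up-regulated. Of these 7 lists, 1 gene passed the test with this herb, PLK2 at 0.81 ± 0.126.

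With P. umbellatus in Huh7, where 17.8% of all genes were down-regulated and 19.3% up-regulated beside the association with GC content given above, 1 of 12 Aurora and PLK1 cofactors was down-regulated and 7 up-regulated. The counts down and up were 2 and 5 of 12 in the spindle assembly checkpoint list, 2 and 2 of 14 CDK1 regulators, and 4 and 5 of 20 in the APC/C and anaphase list. They were 1 and 5 of 12 in the list of polo-like and other kinases, 2 and 3 of 14 regulators of G2/M genes, and 3 and 2 of 6 G1 cyclins and partners tested. The part of GC content in these counts was not tested.

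**Figure D5:**
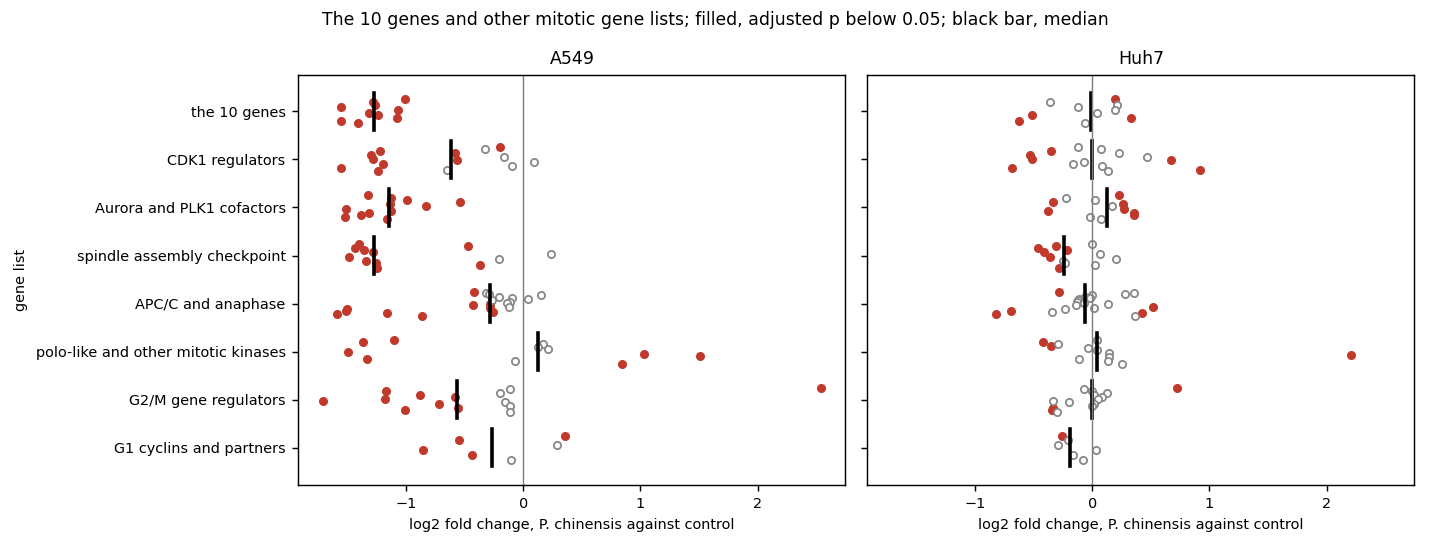
Log2 fold change with P. chinensis against control (horizontal axis) for each tested gene of 8 lists (vertical axis) in A549 (left) and Huh7 (right), with filled points for an adjusted p below 0.05 and black bars for list medians. In A549 the medians of the 10 genes, the Aurora and PLK1 cofactors and the spindle assembly checkpoint lie at -1.27, -1.15 and -1.27, while in Huh7 those medians are -0.00951, 0.123 and -0.243.

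Across the 12 libraries of a line, how far the members went together was described by Pearson correlations of log2 CPM, which carry no test since the libraries share groups. In A549, each member's correlation with the mean of the other members ran from 0.946 for AURKB to 0.995 for CDK1. In Huh7 the same values ran from -0.75 for AURKB to 0.311 for CCNB2, with CCNF at -0.643, PLK1 at -0.732 and CDC20 at -0.707. The genes of high GC content were thus the 4 with the most negative values. The 5 other genes whose pattern was most like the members' mean in A549 were TMPO (0.998), KPNA2 (0.995), FAM83D (0.994), NCAPD2 (0.994) and NUP155 (0.994). In Huh7 the members did not move together, so their mean is not a pattern that they share. The 5 genes nearest to that mean, listed by the same rule, were LUM (0.901), EFEMP1 (0.873), RNFT1 (0.862), MPHOSPH6 (0.848) and CC2D2A (0.840).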

How the data were processed

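RNA was sequenced as ribosome-depleted stranded total RNA. The authors estimated counts with kallisto on Ensembl transcripts of GRCh38.p13, filtered to protein-coding genes averaging more than 5 counts, and deposited the expected (estimated) counts of each gene as whole numbers that are not scaled for depth. How transcripts were summed is not given in the sources used here. Libraries summed to 6803704 to 24345541 counts. Replicates differed by at least 2.74 times the sampling noise, so errors are standard errors from the spread between replicates. Kallisto shares reads among related genes by estimation, so errors there are not covered.

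The analysis used R 4.3.3. In each line, 13633 (A549) or 13875 (Huh7) genes with a mean above 5 counts over 12 libraries were TMM-normalized and fitted with a coefficient per group in edgeR 4.0.16 (quasi-likelihood test, two-sided, prior count 2). An adjusted p below 0.05 (Benjamini-Hochberg, over all genes tested) was called. Differences between lines were tested on 12924 genes in a model of all 24 libraries. The code was tested on simulated data. Of 36 same-numbered pairs of groups, 3 correlated above 0.1, and replicate numbers were not used as pairs. This does not exclude pairing or a shared batch. Alternatives were DESeq2 1.42.0, limma 3.58.1 (voom), other scalings and filters, a replicate block, a GC content and length offset, only the compared libraries, and each library left out.

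The members, gene lists and tests were chosen with earlier results of these data known. Of each list, the 2 lowest and 2 highest called genes of a comparison were eligible to be named, and per line the 5 genes most correlated with the members' mean. Positions are from GENCODE (GRCh38), promoters from RefSeq (GRCh38.p14). GC content and length are of the canonical transcript.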

Additional observations from a re-analysis of the deposited data

Results flagged for a closer look

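The log2 fold change against control differed between the lines for 29 of 30 pairs of gene and herb, by the interaction test of edgeR over 24 libraries (adjusted p below 0.05). The values are those of A549 minus those of Huh7. With P. chinensis, they were CCNA2 -1.383, CCNB1 -1.204, CCNB2 -1.304, CCNF -0.6782, CDK1 -0.8758, PLK1 -1.294, AURKA -1.15, AURKB -0.8646, BUB1 -1.422 and CDC20 -1.356. With B. chinense, they were CCNA2 -1.088, CCNB1 -0.7366, CCNB2 -0.9261, CCNF -0.8126, CDK1 -0.8833, PLK1 -0.9122, AURKA -0.998, AURKB -1.001, BUB1 -1.016 and CDC20 -0.95. With P. umbellatus, they were CCNA2 -1.361, CCNB1 -1.099, CCNB2 -1.097, CCNF -0.684, CDK1 -1.14, PLK1 -0.7716, AURKA -1.024, BUB1 -1.051 and CDC20 -0.8284. AURKB with P. umbellatus was the exception at -0.44 (adjusted p = 0.0942).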

How the results depend on the processing

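There were 1260 values of the 10 genes over 14 comparisons and 9 alternative settings. Of these, 1137 kept their direction and their side of the threshold. With the direction kept, 34 lost the call and 51 gained it. The other 38 changed sign, some of them with a change of call as well. With 1 library left out, these numbers were 2011, 88, 30 and 31 of 2160. Every call in A549 against control and every called difference between the lines was kept. The counts of called genes that moved and the values that changed sign are given here by setting, and single calls lost or gained only as the counts above. Smaller shifts of a count are left out, so a count not listed may still differ. For example, the 3 genes down in A549 P. chinensis against P. umbellatus ranged from 1 to 4 over the settings. The cause was not tested, except that the fit of only the compared libraries holds fewer samples. With DESeq2, the genes called were 5 down in A549 P. chinensis against B. chinense, 1 down in Huh7 P. chinensis against B. chinense, and the log2 fold changes that changed sign were AURKB -0.00189 in A549 P. chinensis against B. chinense, CDK1 -0.00112, CDC20 -0.00409 in Huh7 P. umbellatus against control. With RLE size factors, the genes called were 5 down in A549 P. chinensis against B. chinense, 1 up in Huh7 P. umbellatus against control, and the log2 fold changes that changed sign were AURKB -0.00432 in A549 P. chinensis against B. chinense, CDK1 -0.00222, CDC20 -0.00433 in Huh7 P. umbellatus against control. With upper quartile scaling, the genes called were 2 up in Huh7 P. chinensis against P. umbellatus, and the log2 fold changes that changed sign were CCNB2 0.0198 in Huh7 B. chinense against control, BUB1 0.0313 in Huh7 P. chinensis against P. umbellatus. With voom, the genes called were 0 down in A549 P. chinensis against B. chinense, 4 up in Huh7 P. chinensis against control, 1 down in Huh7 B. chinense against control, 2 down and 2 up in Huh7 P. chinensis against B. chinense, and the log2 fold changes that changed sign were CDK1 -0.326 in Huh7 P. umbellatus against control, CCNB1 0.0646, CCNB2 0.00842, BUB1 0.157 in Huh7 P. chinensis against P. umbellatus. With no filter on low counts, the genes called were 5 down in A549 P. chinensis against B. chinense, and the log2 fold changes that changed sign were AURKB -0.00167 in A549 P. chinensis against B. chinense. With a mean above 20 counts, the genes called were 5 down in A549 P. chinensis against B. chinense, and the log2 fold changes that changed sign were CDK1 -0.00438, CDC20 -0.00537 in Huh7 P. umbellatus against control, BUB1 0.0124 in Huh7 P. chinensis against P. umbellatus. With the replicate block, the genes called were 0 down in A549 P. chinensis against B. chinense, 1 down in A549 P. chinensis against P. umbellatus, 1 up in Huh7 P. umbellatus against control, and the log2 fold changes that changed sign were AURKB -0.00112 in A549 P. chinensis against B. chinense, CDK1 -0.00507 in Huh7 P. umbellatus against control, CDK1 0.0451 in control A549 against Huh7. With the GC content and length offset, the genes called were 5 down in A549 P. chinensis against B. chinense, 4 down and 1 up in Huh7 P. chinensis against control, 1 down and 1 up in Huh7 P. umbellatus against control, 3 down in Huh7 P. chinensis against B. chinense, 7 down and 0 up in Huh7 P. chinensis against P. umbellatus, and the log2 fold changes that changed sign were AURKB -0.0268 in A549 P. chinensis against B. chinense, CCNB2 -0.123 in Huh7 P. chinensis against control, CCNF 0.0417, CDK1 -0.33, PLK1 0.154, BUB1 -0.00654 in Huh7 P. umbellatus against control, CCNB2 -0.105, PLK1 -0.0563, AURKA -0.0135 in Huh7 P. chinensis against B. chinense, CCNB1 0.00739, PLK1 -0.278, AURKB -0.314, BUB1 0.125, CDC20 -0.197 in Huh7 P. chinensis against P. umbellatus, CCNF -0.0123, AURKB -0.0332 in control A549 against Huh7. With only the libraries compared, the genes called were 4 down in Huh7 P. chinensis against control, 2 down and 1 up in Huh7 B. chinense against control, 0 down and 0 up in Huh7 P. umbellatus against control, 0 down in A549 P. chinensis against B. chinense, 1 down in A549 P. chinensis against P. umbellatus, 2 down and 2 up in Huh7 P. chinensis against B. chinense, 0 down and 0 up in Huh7 P. chinensis against P. umbellatus, and the log2 fold changes that changed sign were CDK1 -0.0179, CDC20 -0.0168 in Huh7 P. umbellatus against control, AURKB -0.000972 in A549 P. chinensis against B. chinense. With 1 library left out, the genes called ranged over 0 to 3 down in A549 P. chinensis against B. chinense, 0 to 3 down in A549 P. chinensis against P. umbellatus, 0 to 3 up in Huh7 P. chinensis against control, 0 to 4 up in Huh7 P. umbellatus against control, 1 to 3 down in Huh7 P. chinensis against control, 0 to 2 up in Huh7 P. chinensis against P. umbellatus, 0 to 1 down in Huh7 B. chinense against control, 0 to 2 down in Huh7 P. chinensis against B. chinense, 0 to 2 up in Huh7 P. chinensis against B. chinense, 1 to 3 down in Huh7 P. umbellatus against control. The log2 fold changes that changed sign ranged over AURKB -0.162 to 0.192 in A549 P. chinensis against B. chinense, CCNB2 -0.0415 to 0.0236 in Huh7 B. chinense against control, CDK1 -0.253 to 0.223 in Huh7 P. umbellatus against control, CDC20 -0.0833 to 0.147 in Huh7 P. umbellatus against control, PLK1 -0.0153 to 0.0599 in Huh7 P. chinensis against B. chinense, CCNB2 -0.00768 to 0.0505 in Huh7 P. chinensis against control, CCNB2 -0.0041 to 0.0649 in Huh7 P. chinensis against B. chinense, BUB1 -0.0277 to 0.189 in Huh7 P. chinensis against B. chinense, BUB1 -0.115 to 0.117 in Huh7 P. chinensis against P. umbellatus, CCNB1 -0.148 to 0.0656 in Huh7 P. chinensis against P. umbellatus, CCNF -0.00219 to 0.074 in control A549 against Huh7. Same-numbered libraries had correlations from -0.141 to 0.14, which does not exclude pairing. With 234 or more counts in every library, depth limited no detection, and the precision is set by 3 replicates.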
